A study of Homo sapiens with 4 samples.

Results

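Subtelomeric tiles are the differentially methylated tiles of 1000 bp that lie in the last 2 Mb of an autosome arm. They were chosen by position alone, as autosomal tiles of the authors' deposited comparisons whose start was below 2 Mb or whose end was within 2 Mb of the hg19 length of the chromosome. The p arms of chromosomes 13, 14, 15, 21 and 22, which carry the ribosomal gene clusters, were left out, so that 39 chromosome ends remained. Of the 72455 tiles listed in any of the 3 tables, 6745 were subtelomeric by this rule, 2948 of them in p-arm windows and 3797 in q-arm windows. The windows hold 2.80% of the autosomal tiles that are free of unknown bases. Of the 6745 tiles, 4458 were listed in exactly 1 table, 1925 in exactly 2 and 362 in all 3.

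A human chromosome ends in arrays of the telomere repeat. The subtelomeric region next to it holds segments that are duplicated between chromosome ends and, further inward, gene-rich sequence with many CpG dinucleotides. In somatic cells much of this DNA is methylated, and loss of DNA methyltransferase activity is known to lower that methylation. CpG islands at the starts of active genes are the usual exception and carry little methylation.

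The clones were made from SKOV3, an established line of human ovarian cancer cells that is labelled mesenchymal-like (M), and differ in LY75 (also named DEC205 or CD205), an endocytic receptor for antigens. Clones in which LY75 was suppressed are labelled epithelial-like (E). The data comprised 4 libraries of reduced representation bisulfite sequencing (RRBS), 1 per clone, in which the bisulfite-treated ends of fragments cut by MspI at CCGG are read, so that CpG-rich DNA is covered best. The M clones were the control-shRNA clone ShC-S and Ly75-OV-S, in which LY75 was expressed in cells that also carried the LY75 shRNA. The E clones were ShLy75-S, which carried an shRNA against LY75, and Ly75-KO-S, made by suppressing LY75 with CRISPR. Each group was thus a single clone of one cell line, and Ly75-OV-S descends from cells with the same shRNA as ShLy75-S. The tables compared ShC-S vs ShLy75-S, Ly75-OV-S vs Ly75-KO-S, called the shRNA and the CRISPR comparison here, and a mix of both M libraries vs a mix of both E libraries, which is made of the same 4 libraries as the single comparisons.

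For each tile the authors' deposited tables give the difference in percent methylation between the libraries, in percentage points, with a p-value and a q-value. Only tiles with a difference of at least 25 points and a q-value below 0.01 are listed, and neither the methylation level of a library nor the number of reads behind it is given. The depth of a tile is therefore unknown, and without a replicate no difference between clones could be set against the spread between cultures. Shares of tiles are given with 95% Wilson intervals and differences of shares with Newcombe intervals. These cover counting error only, because neighbouring tiles are not independent and PCR duplicates could not be removed by molecular identifiers. Positive differences stand here for hypermethylation in the E clone. For Ly75-OV-S vs Ly75-KO-S this order rests on the composition of the mix. Over the 362 subtelomeric tiles in all 3 tables, the mix difference was fitted best, by least squares through the origin, as 0.542 times that of ShC-S vs ShLy75-S plus 0.425 times that of Ly75-OV-S vs Ly75-KO-S. Over the 75 of them with opposite signs in the single comparisons the coefficients were 0.693 and 0.559. The deposited table names Ly75-KO-S first, and if that order of names were the order of subtraction, every sign of Ly75-OV-S vs Ly75-KO-S would be turned round. With that order, a mix of both M against both E libraries would give a negative second coefficient, but it was positive in both fits. Values for the opposite order are given below only because the way the mix was formed is not described.

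Stretches of 240 bases are shown for 4 tiles that changed alike in both E clones and for 1 tile dense in telomere repeats. All were read from GRCh37, the build also named hg19, on the plus strand. The first 2 stretches lie in tiles hypermethylated in both E clones, and the next 2 in tiles hypomethylated in both. They were taken where RRBS reads of 50 bp from MspI fragments of 40 to 220 bp cover the most CpGs, and each CpG is in capitals.
Chromosome 12q, intergenic, chr12:132051697-132051936: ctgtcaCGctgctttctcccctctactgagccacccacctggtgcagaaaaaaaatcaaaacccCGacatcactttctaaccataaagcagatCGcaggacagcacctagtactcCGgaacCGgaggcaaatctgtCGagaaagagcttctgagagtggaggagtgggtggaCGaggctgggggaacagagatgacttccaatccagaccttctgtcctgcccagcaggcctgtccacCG
Chromosome 7p, intergenic, upstream of UNCX, chr7:1239670-1239909: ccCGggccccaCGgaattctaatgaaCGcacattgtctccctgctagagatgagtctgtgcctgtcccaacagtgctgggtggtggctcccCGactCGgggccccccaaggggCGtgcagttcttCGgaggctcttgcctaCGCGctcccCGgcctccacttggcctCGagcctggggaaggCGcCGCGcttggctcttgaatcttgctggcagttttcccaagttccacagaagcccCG
Chromosome 19p, intron of CSNK1G2, chr19:1946001-1946240: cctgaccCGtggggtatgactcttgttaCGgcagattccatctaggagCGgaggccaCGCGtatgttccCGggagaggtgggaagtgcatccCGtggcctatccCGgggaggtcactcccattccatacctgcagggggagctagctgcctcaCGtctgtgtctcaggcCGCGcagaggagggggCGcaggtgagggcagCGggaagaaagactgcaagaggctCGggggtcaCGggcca
Chromosome 6p, upstream of FOXF2, chr6:1388128-1388367: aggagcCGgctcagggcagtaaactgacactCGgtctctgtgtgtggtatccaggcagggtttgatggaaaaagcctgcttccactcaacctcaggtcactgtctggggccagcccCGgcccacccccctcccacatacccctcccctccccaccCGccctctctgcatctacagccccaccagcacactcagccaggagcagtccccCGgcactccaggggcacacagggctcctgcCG

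The last stretch comes from an intergenic tile with 28 telomere hexamers. The motif searched was TTAGGG on both strands, which on the plus strand of a p arm reads CCCTAA, and each match is in capitals.
Chromosome 5p, chr5:50466-50705: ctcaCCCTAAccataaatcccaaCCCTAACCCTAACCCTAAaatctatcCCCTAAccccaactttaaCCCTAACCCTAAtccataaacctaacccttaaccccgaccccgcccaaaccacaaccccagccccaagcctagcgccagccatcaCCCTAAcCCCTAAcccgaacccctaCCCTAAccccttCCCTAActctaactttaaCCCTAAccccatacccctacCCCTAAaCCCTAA
The 12q stretch holds 8 CpGs, of which 3 can be read in this way, while the 7p stretch holds 15, of which 13 can be read. The 19p stretch holds 15 CpGs, of which 6 can be read, and the 6p stretch 6, of which 5 can. Over the whole tiles of 1000 bp, 3 of 24 CpGs can be read at 12q and 5 of 25 at 6p. The telomere-repeat stretch of 5p holds 14 hexamers and 4 CpGs, and none of these CpGs can be read with such fragments. In the 1000 bp of this tile, 14 CpGs outside the stretch can. At least 1 hexamer was found in 27.1% of the 75148 window tiles without unknown bases and in 24.3% of the listed subtelomeric tiles. At least 5 were found in 0.180% and 0.104%.

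In ShC-S vs ShLy75-S, the subtelomeric tiles were mostly hypermethylated in the E clone. Of 4983 subtelomeric tiles, 3620 were hypermethylated and 1363 hypomethylated, a share of 72.6% (71.4 to 73.9%). In the rest of the same chromosomes 63.4% of 43957 tiles were hypermethylated, so the subtelomeric share was higher by 9.27 points (7.94 to 10.6). With windows of 1 Mb the excess was 4.98 points (2.87 to 7.01), and with windows of 500 kb it was 3.24 points (-0.314 to 6.61), an interval that includes 0. In Ly75-OV-S vs Ly75-KO-S, hyper- and hypomethylated tiles were nearly balanced at the chromosome ends. There 1227 of 2334 subtelomeric tiles (52.6%; 50.5 to 54.6%) were hypermethylated, against 55.0% of 24441 tiles in the rest, a difference of -2.45 points (-4.57 to -0.333). With the opposite order of subtraction these shares would be 47.4% and 45.0%. In windows of 500 kb the difference was -6.55 points (-11.7 to -1.38), and hypomethylated tiles were the more numerous there. In the mix, 1466 of 2077 subtelomeric tiles (70.6%; 68.6 to 72.5%) were hypermethylated against 64.1% in the rest, 6.50 points more (4.38 to 8.54). This excess was 2.95 points (-0.367 to 6.11) with windows of 1 Mb and 0.13 points (-5.29 to 5.21) with windows of 500 kb, and both intervals include 0. With windows of 5 Mb it was larger than with windows of 2 Mb. The direction of the excess at the chromosome ends was thus opposite in the single comparisons, and the difference between them was not tested.

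Over the whole windows, subtelomeric tiles were also listed more often, with the lowest rates in the outermost 0.5 Mb. A tile was called reachable when at least 1 of its CpGs lies in the 50 bp at either side of an MspI fragment of 40 to 220 bp, and 28786 tiles of the windows were reachable. Between ShC-S and ShLy75-S, 16.8% (16.3 to 17.2%) of these were listed against 12.0% in the rest of the chromosomes. The rate was 12.1% in the outermost 0.25 Mb and 19.5% from 1 to 1.5 Mb, and with windows of 1 Mb the excess over the rest was 2.40 points (1.79 to 3.02). The surplus lay on one side. Hypermethylated tiles made up 12.2% of the reachable tiles at the ends and 7.68% in the rest, while hypomethylated tiles made up 4.53% and 4.35%. Between Ly75-OV-S and Ly75-KO-S, 7.67% (7.37 to 7.98%) were listed against 6.48%, with hypermethylated tiles at 4.04% and 3.58% and hypomethylated tiles at 3.63% and 2.90%. The outermost 2 bins were at 6.81% and 6.38% here, and the bin from 1.5 to 2 Mb at 8.17%. The excess over the rest was 1.19 points (0.878 to 1.51), and it was 0.73 points (0.286 to 1.19) with windows of 1 Mb, 1.91 points with the rest weighted to the CpG numbers and 2.29 points over all tiles with an MspI site. In the mix, 7.03% (6.74 to 7.33%) were listed against 4.99%, an excess of 2.04 points that fell to 1.10 points (0.696 to 1.54) with windows of 1 Mb. Which tiles had enough reads to be compared is not known, and the part of coverage in these rates was not tested.

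The size of the differences was close to that elsewhere. In the shRNA comparison the median absolute difference was 50.0 points at the ends and in the rest. In the CRISPR comparison it was 39.5 and 42.2 points. A complete difference of 100 points, from fully unmethylated to fully methylated or the reverse, was listed for 9.61% of the subtelomeric tiles and 13.5% of the rest in ShC-S vs ShLy75-S, and for 7.84% and 9.46% in Ly75-OV-S vs Ly75-KO-S. Over all listed tiles, complete differences were thus less frequent at the ends in both. Among tiles of similar CpG number the shares were closer. With 11 to 20 CpGs they were 15.5% and 15.7% in ShC-S vs ShLy75-S, and 9.92% and 9.86% in Ly75-OV-S vs Ly75-KO-S. With 21 to 40 CpGs they were 10.25% and 11.02%, and 8.06% and 7.76%. In the other CpG groups the share at the ends was above the rest in some and below it in others. The part of CpG number in this difference was not tested.

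The hypermethylated share was not highest at the very ends. For ShLy75-S against ShC-S it was 65.1% (58.8 to 70.9%) of 235 tiles in the last 0.25 Mb, 68.7% from 0.25 to 0.5 Mb, 70.0% from 0.5 to 1 Mb, 73.9% from 1 to 1.5 Mb and 76.2% (74.0 to 78.4%) from 1.5 to 2 Mb. The share went on to 79.3% from 2 to 2.5 Mb and 83.6% (81.4 to 85.5%) from 2.5 to 3 Mb, outside the windows, before it came down to 71.7% from 3 to 4 Mb, 66.3% from 5 to 7.5 Mb and 60.8% beyond 20 Mb. The cut at 2 Mb therefore marks no step. Just inside it, from 1.75 to 2 Mb, the share was 76.4%, and just outside, from 2 to 2.25 Mb, 77.0%. No chromosome alone set the highest value, which was between 82.4% and 84.4% when each was left out in turn.

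For Ly75-KO-S against Ly75-OV-S the share was also lowest in the outermost bins, but it had no peak from 2.5 to 3 Mb. The share was 47.1% (39.0 to 55.4%) of 138 tiles in the last 0.25 Mb, 49.1% from 0.25 to 0.5 Mb, 53.3% from 0.5 to 1 Mb, 54.3% from 1 to 1.5 Mb and 52.5% from 1.5 to 2 Mb. From 2.5 to 3 Mb, where the other comparison was highest, it was 52.9% (48.8 to 56.9%). The intervals of neighbouring bins overlapped throughout the windows, as they also did in ShC-S vs ShLy75-S. With the opposite order of subtraction the share of Ly75-OV-S vs Ly75-KO-S would be highest in the outermost bins.

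**Figure D1:**
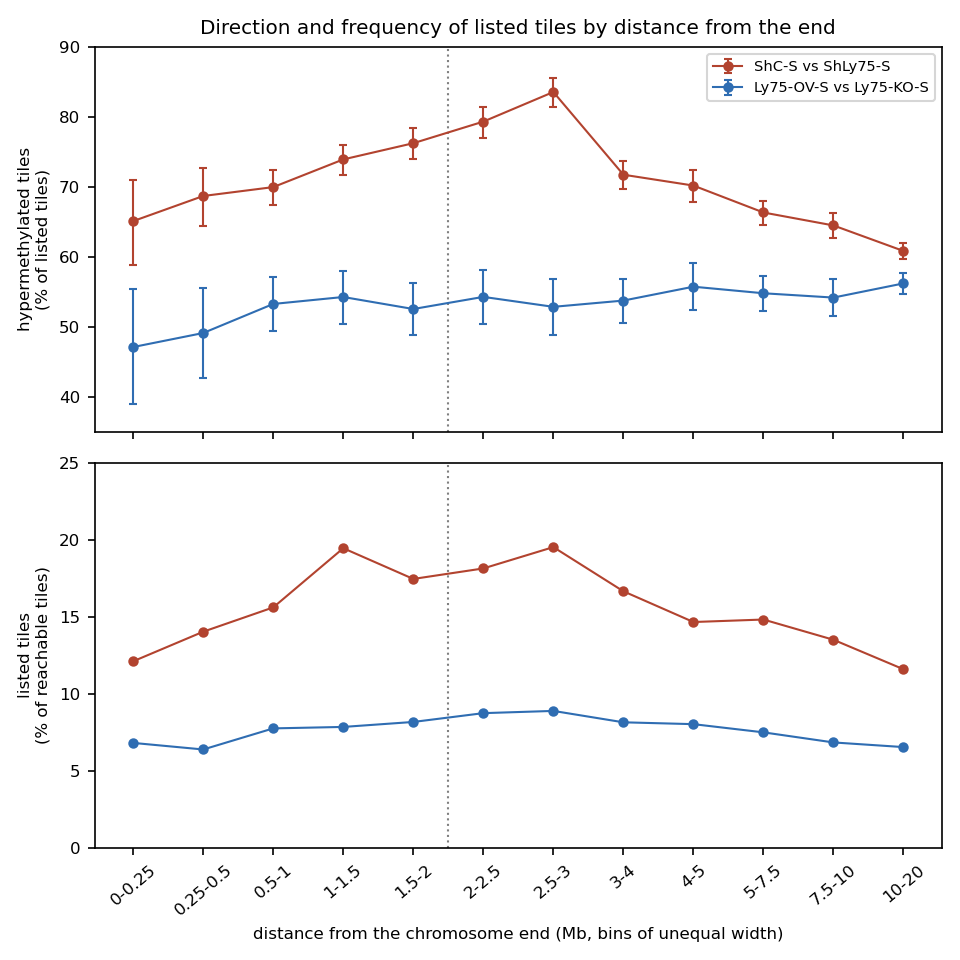
Hypermethylated tiles as a percentage of listed tiles (upper panel, bars are 95% Wilson intervals) and listed tiles as a percentage of reachable tiles (lower panel), by distance from the chromosome end in Mb, for ShC-S vs ShLy75-S (red) and Ly75-OV-S vs Ly75-KO-S (blue). The dotted line is the 2 Mb cut, and the red share climbs from 65.1% in the last 0.25 Mb to 83.6% at 2.5 to 3 Mb.

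The outermost tiles of the windows include DNA with copies elsewhere. Of the 341 tiles listed in the last 0.25 Mb, 15.2% had a copy of at least 500 bp with at least 95% identity at another place in the genome, against 2.27% of all subtelomeric tiles and 2.32% of the rest. Reads of 50 bp from such tiles may be placed at the wrong copy. Without these tiles the hypermethylated share in the last 0.25 Mb of ShC-S vs ShLy75-S was 66.2%, and over all subtelomeric tiles 72.7%.

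The excess in ShC-S vs ShLy75-S was spread over most chromosome ends. At 29 of the 39 ends the hypermethylated share was above that of the rest of the same chromosome, and of the 37 ends with at least 30 tiles 35 had a share over 50%. The interval lay wholly above the rest of the chromosome at 20 of these 37 ends and wholly below it at 4. Among the 17 chromosomes with both ends in the windows, both ends were above the rest in 10 and both below in 2. The share was 70.6% of 2203 tiles in the p-arm windows and 74.2% of 2780 in the q-arm windows. In Ly75-OV-S vs Ly75-KO-S 12 of 39 ends were above the rest of the chromosome, both ends in 2 chromosomes and neither in 11. Of the 32 ends with at least 30 tiles in both single comparisons, 8 were above their chromosome in both, 17 in ShC-S vs ShLy75-S only, 2 in Ly75-OV-S vs Ly75-KO-S only, and 5 in neither. With the opposite order of subtraction, ends above and below their chromosome in Ly75-OV-S vs Ly75-KO-S would change places, so these counts rest on that order. Then 17 of the 32 ends would be above in both and 8 in ShC-S vs ShLy75-S only.

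Among ends with at least 30 tiles, the highest shares in ShC-S vs ShLy75-S were those of 3q, where 35 of 38 tiles were hypermethylated (92.1%; 79.2 to 97.3%), 8p with 123 of 140 (87.9%) and 10p with 82 of 94 (87.2%). The rest of these chromosomes stood at 58.1%, 62.3% and 65.4%. At the other extreme of these ends were 6p with 36 of 81 (44.4%; 34.1 to 55.3%), 9p with 16 of 35 (45.7%; 30.5 to 61.8%) and 11p with 111 of 197 (56.3%; 49.4 to 63.1%). Their chromosomes stood at 59.1%, 67.3% and 64.2%, above the intervals of these ends.

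Between Ly75-OV-S and Ly75-KO-S the highest shares at such ends were at 6p with 32 of 44 tiles (72.7%; 58.2 to 83.7%), 13q with 35 of 54 (64.8%) and 12q with 54 of 86 (62.8%). The lowest were at 7q with 31 of 74 (41.9%; 31.3 to 53.3%), 9q with 40 of 93 (43.0%) and 10q with 40 of 92 (43.5%). In the rest of chromosome 6 it was 55.1% in this comparison. With the opposite order of subtraction the highest and the lowest of these ends would change places, so the place of 6p rests on that order. At 7q, in contrast, 141 of 167 tiles (84.4%) were hypermethylated in ShC-S vs ShLy75-S.

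**Figure D2:**
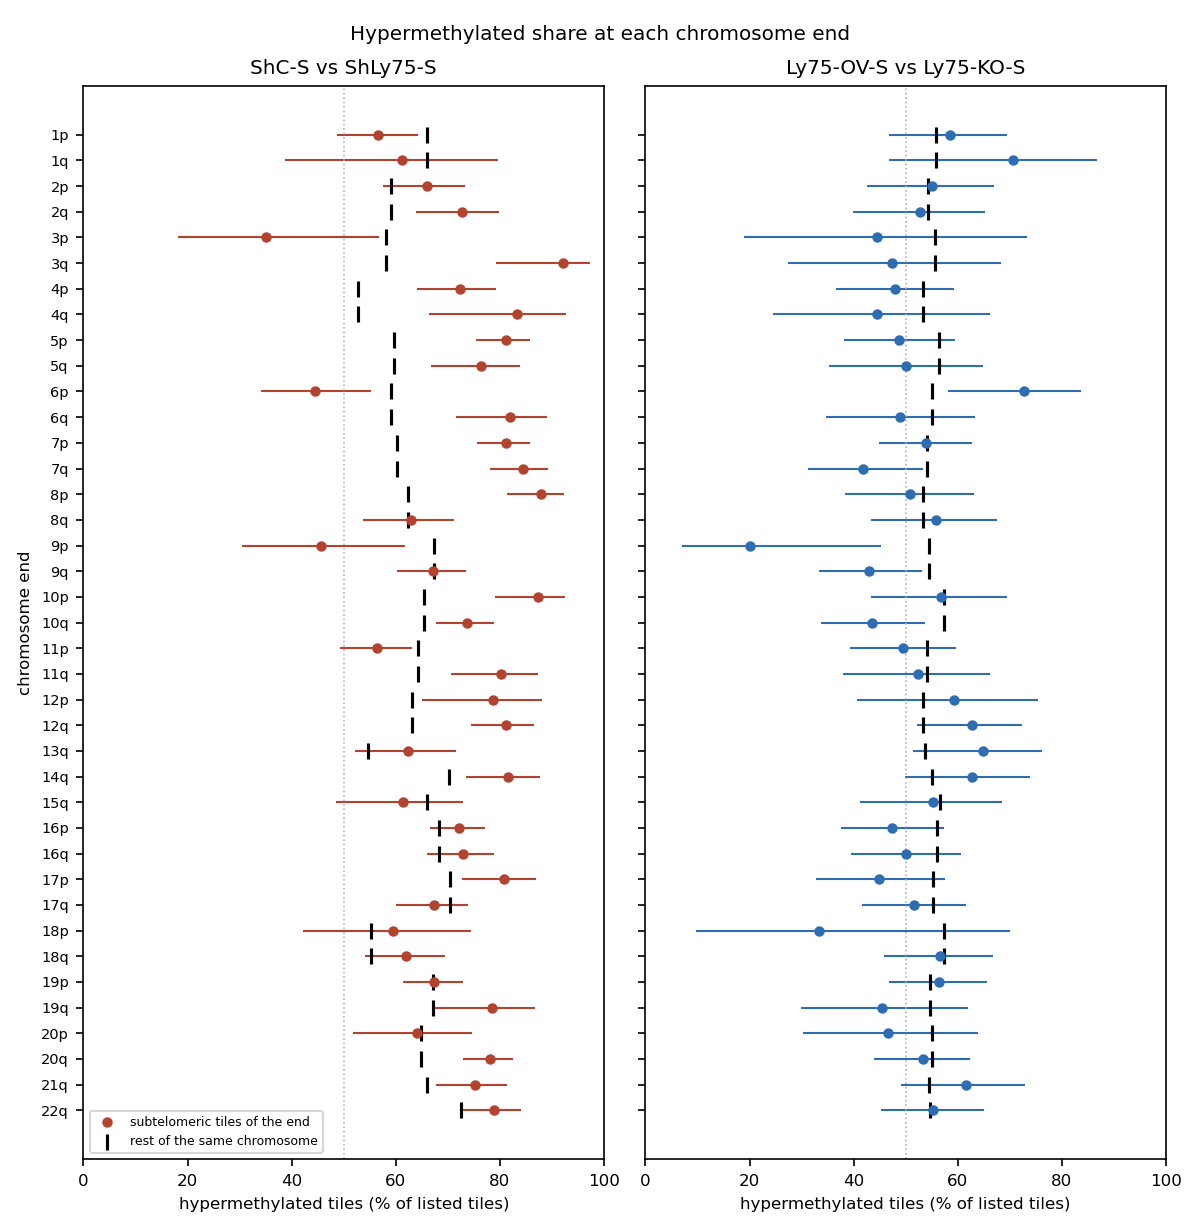
Hypermethylated tiles as a percentage of listed tiles at each of the 39 chromosome ends (dots, with 95% Wilson intervals) and in the rest of the same chromosome (black ticks). In ShC-S vs ShLy75-S 29 dots lie to the right of their tick, in Ly75-OV-S vs Ly75-KO-S 12.

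The 4 ends with the most tiles in ShC-S vs ShLy75-S were 20q with 288, 16p with 266, 19p with 251 and 10q with 232. Their hypermethylated shares were 78.1%, 72.2%, 67.3% and 73.7%. Within an end the direction changed from stretch to stretch. At 16p, 78 of 84 tiles (92.9%) between 1 and 1.25 Mb were hypermethylated, but 6 of 17 (35.3%) between 0.25 and 0.5 Mb. At 20q the share was 88.0% of 50 tiles between 1.25 and 1.5 Mb from the end and 41.4% of 29 between 0.25 and 0.5 Mb. At 10q 29 of 30 tiles between 1.75 and 2 Mb were hypermethylated, whereas at 19p 14 of 32 in the same bin were. These bins of 0.25 Mb were singled out after their values had been seen. In the CRISPR comparison the 16p stretch between 1 and 1.25 Mb held 5 hypermethylated and 8 hypomethylated tiles.

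**Figure D3:**
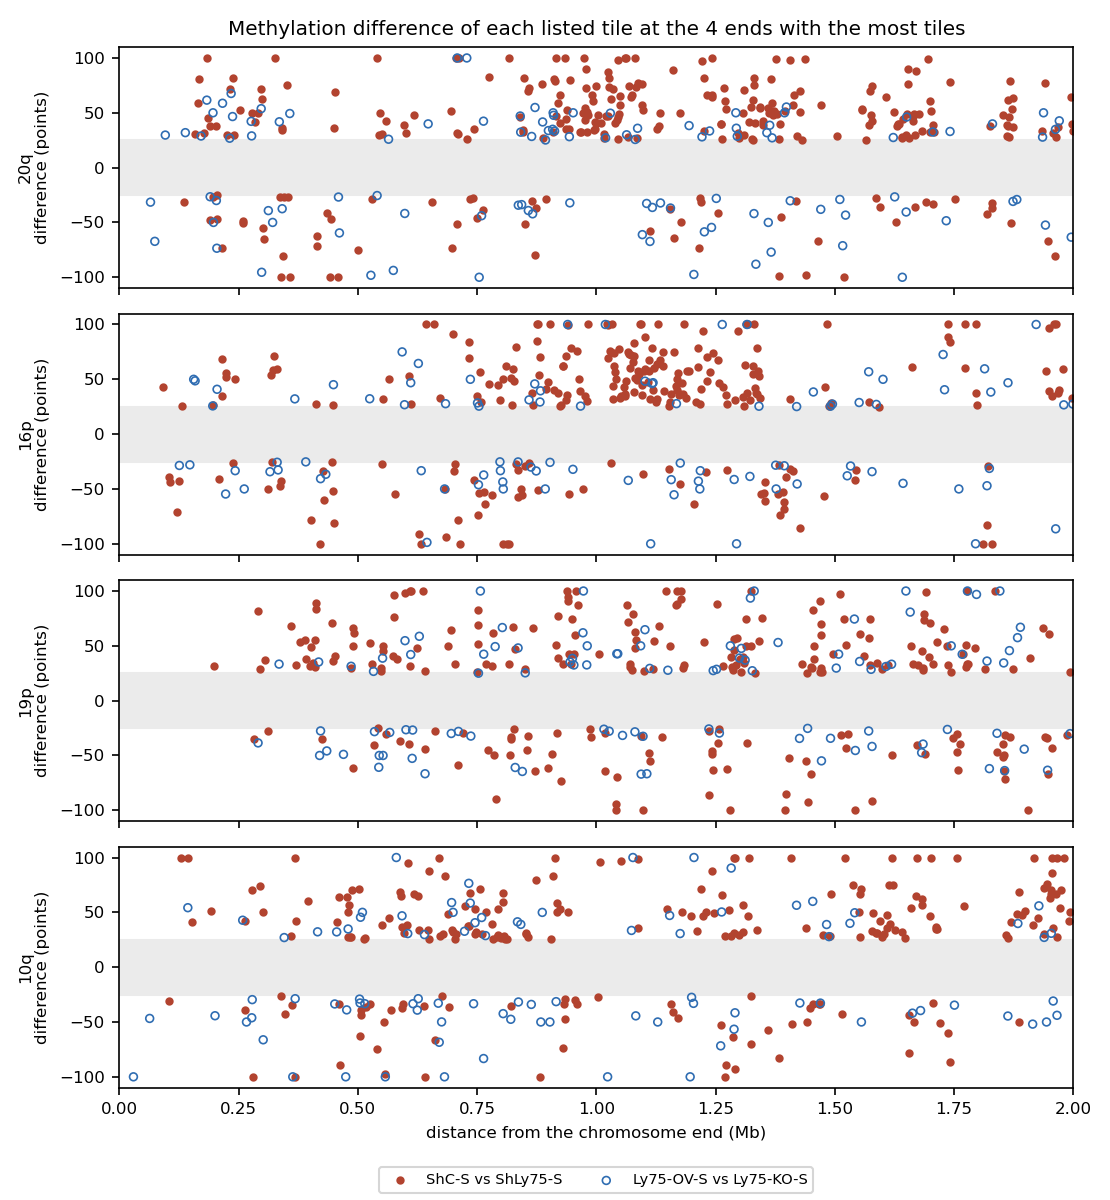
Methylation difference in percentage points of each listed tile at the 4 ends with the most tiles, by distance from the chromosome end in Mb, for ShC-S vs ShLy75-S (filled red) and Ly75-OV-S vs Ly75-KO-S (open blue). Values inside the grey band of 25 points are not listed, and at 16p 78 of the 84 filled points between 1 and 1.25 Mb lie above it.

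Adjacent tiles mostly shared a direction in ShC-S vs ShLy75-S and in the mix. Between ShC-S and ShLy75-S 992 pairs of adjoining subtelomeric tiles were both listed, and 829 pairs (83.6%; 81.1 to 85.7%) had one sign, where the shares of hyper- and hypomethylated tiles alone would give 60.3%. For Ly75-KO-S against Ly75-OV-S 83 of 144 pairs (57.6%; 49.5 to 65.4%) had one sign, against 50.1%. In the mix 183 of 213 pairs (85.9%, with 80.6% as the lower bound) did, against 58.5%. The rest of the chromosomes gave 82.3% of 4162 pairs, 54.3% of 831 pairs and 80.7% of 833 pairs in this order, so this feature of the comparisons was not limited to the ends. Runs of at least 3 adjoining tiles with one sign numbered 126 in ShC-S vs ShLy75-S, 103 of them hypermethylated, 4 in Ly75-OV-S vs Ly75-KO-S and 18 in the mix.

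The longest run was 7 hypermethylated tiles at chr20:61158001-61165000 in MIR1-1HG, the host gene of muscle microRNAs that include MIR133A2, with differences from 27.8 to 79.4 points in ShC-S vs ShLy75-S. Runs of 6 tiles were found at chr19:1468001-1474000 over the 3' part of APC2 and the neighbouring C19orf25 (25.9 to 90.5 points), at chr19:1852001-1858000 over KLF16, a zinc finger factor (-71.1 to -31.3 points), and at chr4:1539001-1545000 outside annotated genes (28.1 to 75.8 points). In Ly75-OV-S vs Ly75-KO-S the longest runs had 3 tiles, and 3 of these 4 runs were hypermethylated, at 11p in MUC2 (26.2 to 100 points), at 7p in MICALL2 (26.1 to 38.6 points) and at 20q outside annotated genes (up to 50.0 points). The other one, chr11:1869001-1872000, was at -99.0 to -34.4 points. These runs were picked by their length after the data had been seen.

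The excess of hypermethylation lay outside promoters. In the shRNA comparison, 81.0% of 1756 intergenic subtelomeric tiles were hypermethylated against 67.7% in the rest of the chromosomes, a difference of 13.3 points (11.2 to 15.2). In introns it was 77.8% of 1456 tiles against 62.2%, 15.6 points (13.3 to 17.8). In exons it was 68.1% of 758 tiles against 63.2%, 4.84 points (1.17 to 8.36). Within 2 kb of a transcription start site (TSS), called promoters here, it was 54.2% of 1013 tiles against 56.3%, a difference of -2.14 points (-5.41 to 1.09). Between Ly75-OV-S and Ly75-KO-S the subtelomeric shares were 52.7%, 53.8%, 52.6% and 49.9% in the same order, each below that in the rest (54.2 to 56.1%), and every interval of the difference included 0. With the opposite order of subtraction 401 of 847, 354 of 766, 166 of 350 and 186 of 371 tiles would be hypermethylated. Each of these shares would be above that in the rest.

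**Figure D4:**
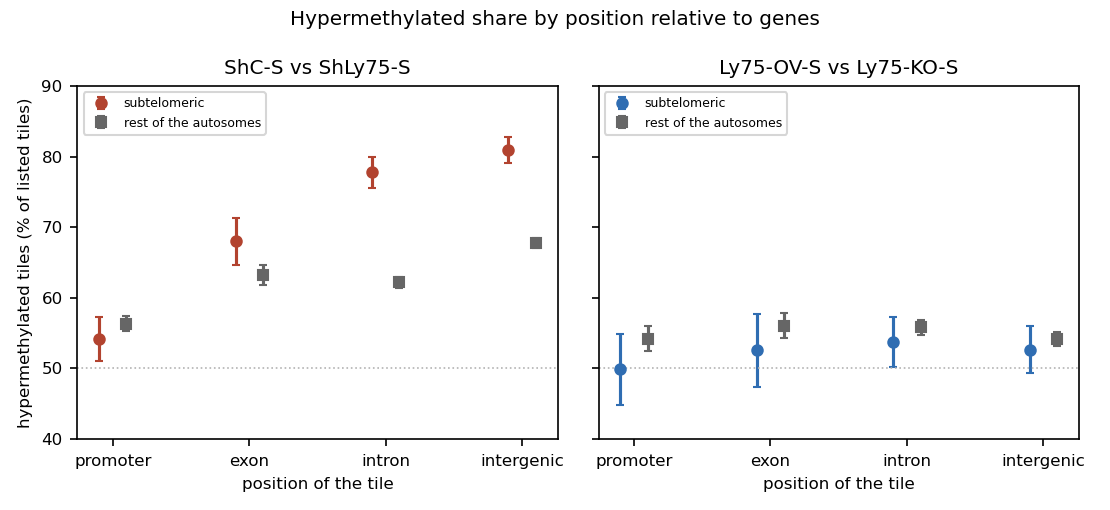
Hypermethylated tiles as a percentage of listed tiles by position relative to genes, for subtelomeric tiles (circles) and the rest of the autosomes (grey squares), with 95% Wilson intervals. For ShLy75-S against ShC-S the circles stand above the squares for exons, introns and intergenic tiles (68.1%, 77.8% and 81.0%) but not for promoters (54.2%).

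Subtelomeric tiles held more CpGs. In ShC-S vs ShLy75-S their median was 31 CpGs per tile with 58.8% G and C, against 18 CpGs and 49.7% in the rest. Tiles with 21 to 40 CpGs made up 53.8% of the subtelomeric tiles, and 75.4% of these 2682 were hypermethylated against 69.1% in the rest, 6.32 points more (4.48 to 8.10). Among tiles with 41 to 60 CpGs 72.6% of 908 subtelomeric tiles were hypermethylated against 59.8% in the rest, and among those with 11 to 20 CpGs 75.3% of 787 against 65.8%. Above 60 CpGs per tile the shares were 55.4% of 482 and 56.1%. When the rest was weighted to the CpG numbers of the subtelomeric tiles, the excess was 7.46 points, and when it was weighted to their positions relative to genes, 9.54 points. In the CRISPR comparison these weighted differences were -2.26 and -2.45 points, and with the opposite order of subtraction both would be positive.

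The single comparisons share no library, and 742 subtelomeric tiles were listed in both. They made up 14.9% of those of ShC-S vs ShLy75-S and 31.8% of those of Ly75-OV-S vs Ly75-KO-S. In the rest of the chromosomes these shares were 16.1% and 29.0%. Of the 742 subtelomeric tiles, 386 (52.0%; 48.4 to 55.6%) had the same direction, 283 up in both E clones and 103 down in both. Opposite directions were found for 356 tiles, 251 of them hypermethylated in ShLy75-S and hypomethylated in Ly75-KO-S. The shares of hypermethylated tiles alone would give 51.0% with the same direction, and in the rest of the chromosomes it was 52.5% of 7083 tiles. With a difference of at least 50 points in both, 64 tiles agreed in direction and 64 did not.

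**Figure D5:**
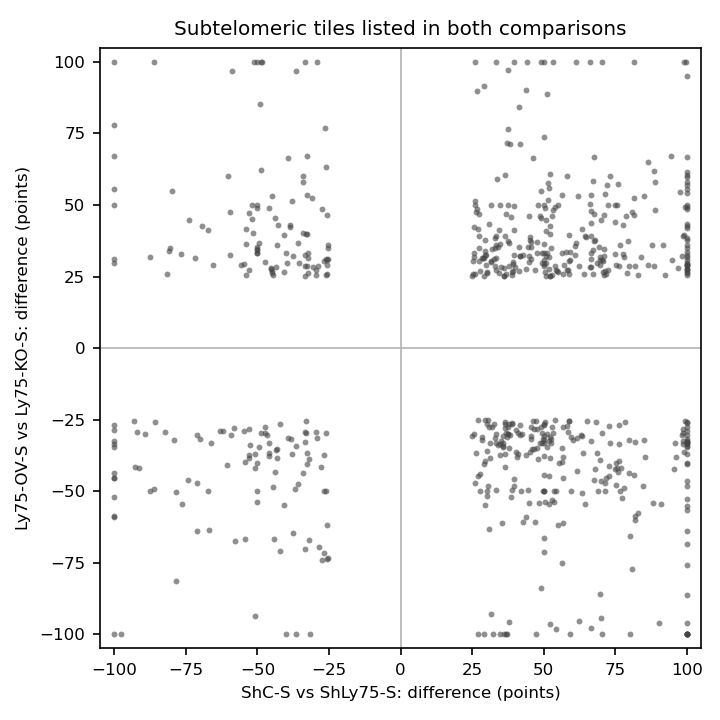
Methylation difference in percentage points in ShC-S vs ShLy75-S (horizontal) and Ly75-OV-S vs Ly75-KO-S (vertical) for the 742 subtelomeric tiles listed in both, 1 point per tile. The empty cross is the unlisted range within 25 points, and the upper right quadrant holds 283 points and the lower right 251.

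Of the 362 tiles listed in all 3 tables, 287 (79.3%) had one sign throughout, 212 hypermethylated and 75 hypomethylated in the E clones. As the mix holds the libraries of both single comparisons, a tile with one sign in both is likely to keep it there. Opposite differences partly cancel in the mix, so such tiles are listed there less often. Of the 386 tiles with the same direction in both single comparisons 287 were listed in the mix, but 75 of the 356 with opposite directions. The 79.3% is thus set in part by this filter, and without it 52.0% had the same direction. The 6 tiles per direction whose smallest difference over the 3 tables was largest were taken as examples, and their values are given for ShC-S vs ShLy75-S, Ly75-OV-S vs Ly75-KO-S and the mix, in this order.

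The leading hypermethylated tile, chr12:132051001-132052000, lies outside annotated genes, 1.8 Mb from the 12q end, and differed by 99.0, 100 and 99.5 points. A difference of this size needs the CpGs read in the tile to be nearly unmethylated in the M clone and almost fully methylated in the E clone. With MspI fragments of 40 to 220 bp only 3 of its 24 CpGs can be read. The tile chr7:1239001-1240000, also intergenic, differed by 100, 95.2 and 96.5 points, and the nearest TSS is that of UNCX, a homeobox factor, 32508 bp away. An intronic tile of DUSP22, a dual-specificity phosphatase gene at the 6p end (chr6:308001-309000), differed by 94.4, 67.1 and 74.0 points. An intronic tile of SLC19A1, the reduced folate carrier (chr21:46975001-46976000), differed by 67.5, 66.8 and 70.4 points, and it is the most CpG-dense of the 6 with 108 CpGs. The remaining pair lay in introns of RSPO4, a secreted enhancer of Wnt signalling (chr20:952001-953000; 86.3, 64.9 and 83.6 points), and of ASPSCR1, a gene known from fusions with TFE3 (chr17:79961001-79962000; 88.7, 61.8 and 79.5 points). All 6 were thus intronic or intergenic and lay more than 2 kb from any TSS.

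On the hypomethylated side, an exonic tile of the noncoding gene FAM87A (chr8:327001-328000) differed by -78.4, -81.3 and -66.7 points, but it has a near-identical copy elsewhere, so the place of its reads is uncertain. An intronic tile of CSNK1G2, a casein kinase gene (chr19:1946001-1947000), differed by -66.8, -63.5 and -64.4 points. An intronic tile of the noncoding LINC01874 at 2p (chr2:495001-496000) with 76 CpGs differed by -100, -59.0 and -69.0 points. The tile upstream of FOXF2, a forkhead factor of mesenchyme (chr6:1388001-1389000), lies 811 bp from the TSS and differed by -100, -58.7 and -65.0 points. Among these 12 tiles it was the only promoter tile. The last examples lay in an exon of ARFGAP1, a GTPase-activating protein of Golgi traffic (chr20:61912001-61913000; -58.0, -67.3 and -53.7 points), and in an intron of ADAMTS17, a secreted metalloprotease (chr15:100879001-100880000; -100, -51.9 and -77.3 points).

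Among the 1656 annotated genes of the windows, 923 had a subtelomeric tile in an exon or promoter in ShC-S vs ShLy75-S. By their largest difference 490 of them were hypermethylated and 433 hypomethylated, a more even split than that of all tiles. For Ly75-KO-S against Ly75-OV-S 588 genes had such a tile, 283 hyper- and 305 hypomethylated by the largest difference. They are the background for the lists that follow, which count exon and promoter tiles and leave out tiles in introns alone.

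The genes selected in the study on these clones that lie at chromosome ends are JMJD8, CEND1 and APC2, and since they were selected there, their direction is not independent evidence. Promoter tiles of JMJD8 at 16p, which encodes a jumonji domain protein, were hypermethylated in ShLy75-S by 69.3 points (chr16:733001-734000) and 84.1 points (chr16:734001-735000), and in Ly75-KO-S by 50.0 points at another tile (chr16:736001-737000). CEND1 at 11p, a regulator of cell cycle exit in neurons, was hypomethylated in ShLy75-S at 3 promoter tiles by -78.4, -73.2 and -25.6 points. The first of them (chr11:789001-790000) was hypomethylated in Ly75-KO-S too, by -50.5 points. JMJD8 and CEND1 thus had one direction each over all their listed tiles in the single comparisons.

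APC2 at 19p, a member of the complex that degrades β-catenin, changed sign along its length. Of its 3 promoter tiles, chr19:1450001-1451000 was hypomethylated in ShLy75-S by -67.0 points and in the mix by -31.3 points, while chr19:1451001-1452000 and chr19:1453001-1454000 were hypermethylated in ShLy75-S by 30.9 and 29.8 points. The 9 exonic tiles of ShC-S vs ShLy75-S, which reach to chr19:1473001-1474000, were hypermethylated by 25.9 to 90.5 points. In Ly75-OV-S vs Ly75-KO-S the only listed tile, chr19:1472001-1473000 near the 3' end, was hypomethylated by -54.9 points, where ShC-S vs ShLy75-S had 29.5 points.

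All 5 genes of the Wnt list had an exon or promoter tile in ShC-S vs ShLy75-S, 3 hyper- and 2 hypomethylated by the largest difference, and 2 had one in Ly75-OV-S vs Ly75-KO-S. AXIN1 at 16p, the scaffold of the complex that degrades β-catenin, was hypomethylated in ShLy75-S by -78.3 points at a promoter tile (chr16:401001-402000) and by -47.1 points at an exonic tile (chr16:337001-338000). No exon or promoter tile of AXIN1 was listed in Ly75-OV-S vs Ly75-KO-S or in the mix. DVL1, the cytoplasmic transducer Dishevelled, was hypomethylated in ShLy75-S at 3 tiles by -42.0 to -37.1 points. In the mix its exonic tile chr1:1273001-1274000 had -30.1 points, but its promoter tile (chr1:1286001-1287000) had 38.4 points. NKD2, an inhibitor of Dishevelled, was hypermethylated at 2 exonic tiles by 40.8 and 41.0 points. Promoter tiles of WNT5B, a Wnt ligand, were listed in both directions in Ly75-OV-S vs Ly75-KO-S, at 36.6, -28.3 and 54.1 points.

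The telomere maintenance genes TERT and RTEL1 lie in the windows themselves. TERT at 5p, the catalytic subunit of telomerase, had 5 exonic tiles in ShC-S vs ShLy75-S, all hypermethylated by 26.8 to 69.1 points, and none at its promoter. No exon or promoter tile of TERT was listed in Ly75-OV-S vs Ly75-KO-S. RTEL1 at 20q, a helicase that unwinds telomere loops, was hypomethylated at its promoter in ShLy75-S by -28.7 points (chr20:62289001-62290000), while the exonic tiles had -51.2, 31.5 and 100 points. The second of these 4 tiles (chr20:62316001-62317000) had 100 points in Ly75-OV-S vs Ly75-KO-S, the opposite sign.

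The alpha globin genes near the 16p end, which encode the alpha chains of haemoglobin, were hypermethylated in ShLy75-S at all 5 gene and tile pairs listed, which cover HBM, HBA2 and HBA1, by 34.5 to 68.1 points. Between Ly75-OV-S and Ly75-KO-S the pairs listed were the HBA2 tile chr16:223001-224000 at -54.6 points, which had 51.9 points in ShC-S vs ShLy75-S, and an exonic tile of NPRL3, the neighbouring gene that holds their enhancer, at -28.0 points. HBA1 and HBA2 are near-identical, so reads may be split between them.

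Developmental transcription factors were listed in both directions. Between ShC-S and ShLy75-S 16 of 17 had a tile, 6 hyper- and 10 hypomethylated by the largest difference. Of their 52 tiles 25 were hypermethylated, and over all genes of the windows 1065 of 1771 gene tiles were. Many tiles of this list are promoter tiles or hold over 60 CpGs. Of all such subtelomeric tiles 54.2% and 55.4% were hypermethylated, and a difference of the list from them was not tested. The largest differences were those of FOXF2 at -100 points, of NFATC1, a calcineurin-dependent factor, at -100 points (chr18:77228001-77229000), of SOX8 at 100 points (chr16:1033001-1034000) and of the testis factor DMRT1 at -85.8 points (chr9:840001-841000). Tiles of one gene could differ in sign. The FOXF2 tiles closer to the gene, chr6:1390001-1391000 and chr6:1391001-1392000, had 29.1 and 57.1 points. In contrast, 3 tiles of NKX6-2 (-47.4 to -29.3 points) and 3 of UNCX (-45.7 to -34.7 points) all had one sign, and 5 of VENTX were hypermethylated by 27.6 to 56.6 points. The CRISPR comparison listed 7 of the 17 genes, 3 hyper- and 4 hypomethylated. FOXC1, a forkhead factor of mesoderm, had -80.7 points in ShC-S vs ShLy75-S and 34.0 points in Ly75-OV-S vs Ly75-KO-S at one promoter tile (chr6:1608001-1609000).

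All 12 genes of the epithelial and EMT list that lie in the windows had a tile in ShC-S vs ShLy75-S, 7 hyper- and 5 hypomethylated by the largest difference, with 28 of 43 tiles hypermethylated, a share close to the 1065 of 1771 over all gene tiles of the windows. The largest differences were those of PDGFA, a mesenchymal growth factor, at -100 points near its TSS (chr7:561001-562000), of COL6A2, a collagen VI chain, at -100 points in an exon (chr21:47541001-47542000), and of CDH15, a cadherin of muscle, at 97.6 points in an exon (chr16:89245001-89246000). The promoter tile of CDH15 (chr16:89236001-89237000) was instead hypomethylated in ShLy75-S by -43.7 points, in Ly75-KO-S by -43.4 points and in the mix by -52.9 points. All 8 tiles of COL9A3, a collagen IX chain, were hypermethylated by 25.3 to 74.1 points, and so were 4 exonic tiles of NOTCH1 by 25.8 to 57.9 points. The CRISPR comparison listed 8 of the 12, 4 in each direction by the largest difference.

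The gel-forming mucins at 11p, secreted glycoproteins of epithelia, had more hypo- than hypermethylated exon and promoter tiles in ShC-S vs ShLy75-S but not in the mix. In the shRNA comparison 18 of their 30 tiles were hypomethylated, whereas over all genes of the windows 706 of 1771 gene tiles were. Of 11 tiles of MUC5B 9 were hypomethylated, 2 of them by -100 points, and MUC5AC had 4 of 5. By contrast 6 of 7 tiles of MUC6 were hypermethylated. The largest positive differences were 100 points in exons of MUC2 (chr11:1081001-1082000) and MUC5AC (chr11:1157001-1158000), and the MUC2 tile had -48.3 points in Ly75-OV-S vs Ly75-KO-S. There 3 of 8 tiles were hypermethylated, against 369 of 721 gene tiles of the windows, and in the mix 7 of 13. The 8 tiles leave out the run of 3 hypermethylated tiles in MUC2 at chr11:1095001-1098000, which are no exon or promoter tiles, and with these 3 the hypermethylated tiles would be the more numerous.

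Of 29 zinc finger genes and neighbours at the 19q end, 10 had a tile in ShC-S vs ShLy75-S, 8 hyper- and 2 hypomethylated by the largest difference. These are 34.5% of the list, against 55.7% of all genes of the windows. Their hypermethylated share, 12 of 16 gene and tile pairs, was close to that of the whole 19q end, 51 of 65 listed tiles (78.5%). ZNF135 (chr19:58570001-58571000), ZNF544 (chr19:58739001-58740000) and ZNF671 (chr19:58238001-58239000) had promoter tiles at 100 points, and ZNF418 had 96.7 points. On the other side ZNF584 had -66.4 points and ZNF329 -58.0 points. Most genes of this cluster encode zinc finger proteins that repress transcription. In the CRISPR comparison 3 had a tile, and all 3 were hypermethylated, by 46.7 to 54.9 points. Of all 33 listed tiles of the 19q end 15 were hypermethylated there.

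Few tiles were listed in the families duplicated between chromosome ends. Of 15 such genes in the windows 2 had a tile in ShC-S vs ShLy75-S, ZNF718 at 4p with 91.4 points (chr4:124001-125000) and DUX4 at 4q, the gene of the D4Z4 repeat, with 25.7 points (chr4:191003001-191004000), and none had one in the other tables. The DUX4 tile has a near-identical copy elsewhere, so the place of its reads is uncertain. How many tiles of these families had enough placed reads to be compared is not known.

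Some genes of the windows were covered by many tiles. For ShLy75-S against ShC-S 13 genes had at least 10 tiles in exons or promoters, and 12 of them had more hyper- than hypomethylated tiles. Over all genes of the windows 1065 of 1771 gene tiles were hypermethylated. Adjoining listed tiles shared a sign in 83.6% of pairs, so the tiles of a gene are not independent. COL20A1, a collagen gene at 20q, had 13 of 13 hypermethylated. PDE6B (4p), a phosphodiesterase of photoreceptors, KIF1A (2q), a neuronal kinesin, and CFAP74 (1p), a protein of cilia, had 10 of 10 each. JAKMIP3 at 10q had 14 of 16, and MUC5B was the one gene with more hypomethylated tiles. In Ly75-OV-S vs Ly75-KO-S COL20A1 had 3 hyper- and 1 hypomethylated tiles, KIF1A 2 and 2, and MUC5B 1 and 2. PDE6B had 1 hypermethylated tile there, JAKMIP3 1 hypomethylated tile and CFAP74 none. These genes were chosen by their number of tiles after the values had been seen.

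The listed tile closest to any chromosome end in ShC-S vs ShLy75-S was chr17:10001-11000, an intronic tile of DOC2B 10 kb from the 17p end, which was hypermethylated in ShLy75-S by 88.1 points and in the mix by 25.6 points. The next was chr2:11001-12000, 11 kb from the 2p end, with 108 CpGs and 52.7 points. The telomere-repeat tile at 5p, chr5:50001-51000, was hypomethylated in ShLy75-S by -81.1 points and in the mix by -43.3 points. The 7 subtelomeric tiles with at least 5 hexamers also include an intronic tile of DIP2C at 10p (chr10:553001-554000) with 100 points in ShC-S vs ShLy75-S and a tile at 11p (chr11:1867001-1868000) with -34.2 points there and 40.1 points in Ly75-OV-S vs Ly75-KO-S. Another, chr2:10001-11000, also has 28 hexamers and lies 10 kb from the 2p end. It was listed in Ly75-OV-S vs Ly75-KO-S only, at -31.4 points, as was a 16q tile at -33.3 points. At 12q chr12:133030001-133031000 had 58.1 points in ShC-S vs ShLy75-S, 27.4 in Ly75-OV-S vs Ly75-KO-S and 57.2 in the mix. The adjoining 12q tile had -96.2 points in ShC-S vs ShLy75-S and -31.3 in the mix.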

How the data were processed

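Genomic DNA of 4 SKOV3 clones was cut with MspI, size selected, bisulfite converted and sequenced as single reads of 50 bp. Per the submitters' processing notes the tools were FastQC, Trim Galore 0.4.1, Bismark 0.16.1 and methylKit on hg19, while the labels name Trimmomatic for trimming. The authors deposited 3 tables of tiles of 1000 bp that give, per tile, how far percent methylation differs (in percentage points) and its p-value and q-value. The deposited tables hold the authors' own comparisons and nothing else, so their differences are the only values used. The largest q-value is 0.00986 and the smallest difference 25.0 points. Versions not named here, the coverage minimum and the way the mix was formed are not given in the sources used here.

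From the tables, tiles were counted by position and sign, and shares were given Wilson or Newcombe intervals with 95% confidence. No test between conditions was made, because each clone has 1 library and the deposited values give no level per library. Chromosome lengths, CpGs, MspI fragments and telomere hexamers were computed from GRCh37. Genes and exons are those of GENCODE release 44 on GRCh37 with a RefSeq transcript symbol. Promoter means within 2 kb of a TSS. Near-identical copies were sought with minimap2 2.31. The windows, gene lists, named items and alternatives were chosen with earlier results of these data known. Named were the genes of each list by largest difference, the 6 tiles per direction in all tables, the ends with the most tiles and the extreme shares among ends with at least 30 tiles, and the tile closest to an end. The interval script was tested on simulated data. The software was matplotlib 3.10.9, pandas 2.3.3, scipy 1.17.1 and numpy 2.4.6 under Python 3.11.15.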

Additional observations from a re-analysis of the deposited data

Results flagged for a closer look

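The subtelomeric excess of hypermethylated tiles had opposite signs in the single comparisons. In ShC-S vs ShLy75-S the share was 9.27 points above that of the rest of the same chromosomes, and the CRISPR comparison (Ly75-OV-S vs Ly75-KO-S) had -2.45 points, a share below that of the rest. The difference between the comparisons was not tested, as each rests on 1 library per clone. The sign of the second one rests on the order of subtraction that was taken from the mix.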

How the results depend on the processing

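Leaving out each chromosome in turn kept the direction of all 132 values, with the hypermethylated share of ShC-S vs ShLy75-S at 71.8 to 73.2%, that of Ly75-OV-S vs Ly75-KO-S at 52.1 to 53.2% and that of the mix at 69.9 to 71.2%, and its difference from the rest at 8.27 to 10.1, -3.01 to -1.85 and 5.65 to 7.31 points. Of 94 values under other settings 53 stayed within the interval of the reported value, 39 moved beyond it and 2 changed side. In ShC-S vs ShLy75-S the hypermethylated share was 69.1% with windows of 1 Mb, 67.5% with 500 kb, 74.2% with 5 Mb, 75.8% for differences of at least 50 points and 71.1% with runs counted once. Its excess over the rest was 4.98, 3.24 (an interval that includes 0) and 12.7 points for the same windows, 10.7 points for differences of at least 50 points and 7.46 points with the rest weighted by CpG number. In the mix the share was 67.6%, 64.9% and 72.7% for these windows and 72.8% for at least 50 points, and the excess 2.95, 0.13 and 10.3 points. In Ly75-OV-S vs Ly75-KO-S windows of 500 kb gave 48.3%, below 50%, and a difference of -6.55 points.

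Listed tiles per reachable tile were 14.2%, 6.59% and 5.93% (ShC-S vs ShLy75-S, Ly75-OV-S vs Ly75-KO-S, mix) with fragments of 40 to 400 bp, 9.85%, 4.61% and 4.11% over all tiles with an MspI site, and 14.7%, 7.27% and 6.21% with windows of 1 Mb. Their excess over the rest was 5.67, 2.29 and 2.40 points over all tiles with an MspI site, 2.40, 0.73 and 1.10 points with 1 Mb, and 3.53, 1.91 and 1.63 points with CpG weighting. With 5 Mb it was 5.34 points in ShC-S vs ShLy75-S and 1.77 in Ly75-OV-S vs Ly75-KO-S, where the rate was 8.04%. With the order of Ly75-OV-S vs Ly75-KO-S reversed, 48.0% of the tiles in both comparisons shared a direction. The causes of these shifts were not tested. Removing near-identical copies, keeping only reachable tiles and CpG weighting of the listing rate were added after seeing the data. No paired analysis was made, because the deposited values are differences between libraries and give no level per library. Without read counts, small differences and levels could not be assessed.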
